A study of Rattus norvegicus with 12 samples.

Results

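The genes described here encode voltage-gated potassium, calcium and sodium channels with their accessory subunits, inward rectifier and tandem-pore potassium channels, Trp channels, and chloride channels of the Clcn and Clic families. They were chosen by gene symbol: a gene belonged if its symbol began with Kcn, Cacn, Scn and a digit, Trpc, Trpm or Trpv and a digit, Clcn or Clic, and if its probe set had a mean signal of at least 215 over all 12 arrays. Of the 139 genes with such symbols on the array, 51 met the limit and 88 did not. The limit was the same for all genes and left 10264 genes, each represented by its probe set of highest mean signal. Just above the limit were Kcnc4, a potassium pore subunit, with a mean signal of 217 and Trpv4, an osmotically sensitive cation channel, with 216. Just below it were Kcnab2 with 208 and Clcn1 with 205. For 11 of the 51 genes the mean reached the limit only through their highest group: over the other 3 groups it was below 215. Such a gene was tested because it was high in that group, so a difference involving that group was favoured by the limit, as stated for the genes it concerns. The symbol rule also took in Trpc4ap, an adaptor protein that is not itself a channel.

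Potassium channels set the resting potential of glial cells and let astrocytes take up the potassium that active axons release. Voltage-gated calcium channels and Trp channels admit calcium and other cations, while Clcn proteins carry chloride across the plasma membrane or exchange it for protons in endosomes and lysosomes. Clic proteins exist in soluble and membrane-bound forms, and their work as channels in cells is less settled than that of the other families. The optic nerve head, where the axons of the retina leave the eye, holds astrocytes that respond to injury and to growth factors acting on the epidermal growth factor (EGF) receptor.

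The study measured total RNA from primary cultures of rat optic nerve head astrocytes on single-colour Affymetrix arrays. There were 4 groups of 3 arrays: EGF for 4 h, its control, EGF for 12 h and its control. The labels give no strain, age, EGF dose or culture purity, and they do not say whether replicates were separate cultures, so the p-values may measure only technical spread. All values are signals scaled by the authors to a common mean per array, and they have no order between different genes, because probe sets differ in how strongly they bind their target. Log2 fold changes are EGF against control on the scale log2(signal + 24.4), which understates the change of dim genes. The threshold was an adjusted p of 0.05 in limma, adjusted over all 18632 probe sets tested.

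The cell type label was checked against its markers. Of 11 astrocyte markers on the array, 7 were above the signal limit, among them the gap junction gene Gja1 with a mean signal of 67135 and the glutamine synthetase gene Glul with 5664. The defining marker Gfap had a mean of 185, and Aldh1l1 (127), Slc1a2 (96.0) and the water channel gene Aqp4 (72.9) were also below the limit. By contrast, all 10 fibroblast and meningeal markers were above it. The data therefore go against the label in these 4 defining markers, and "astrocytes" below means cultures so labelled. The summed signal of the fibroblast list was 215600 to 258770 on the control arrays of 12 h and 154306 to 231731 on the EGF arrays, with 5 of its 10 genes lower with EGF and 1 higher at that time. Over all genes tested, 24.2% were lower and 16.5% higher at 12 h. At 4 h the sums of the fibroblast list were 257211 to 290105 in the control and 234885 to 256563 with EGF. Lists of other cell types moved with EGF as well, most without overlap of the arrays. The oligodendrocyte lineage list summed to 9859 to 10489 in the control and 5536 to 6354 with EGF at 4 h. At 12 h it summed to 12840 to 14049 and 6167 to 7517. Mbp, Pdgfra and Cnp were lower at both times, while Cspg4 was higher at 12 h (2.01, adjusted p = 0.00152). This list has 9 genes on the array, of which 4 were below the signal limit. The neuron list went from 5862 to 6938 in the control to 7065 to 8699 with EGF at 4 h, and from 5850.0 to 6469 to 14941 to 20995 at 12 h, where Gap43 rose by 4.65 on the log2 scale (adjusted p = 1.83e-07). The summed signals of the microglia and Schwann cell lists were higher on all EGF arrays at both times. The endothelial sum was higher at 4 h and lower at 12 h. These sums rest on few genes, and not all moved alike. At 12 h the Schwann genes Egr2 and Gap43 were higher while Prx and Pmp22 were lower. Of 9 endothelial genes on the array, 7 were below the signal limit, and Tek was lower and Flt1 higher at both times. Of 10 microglia genes, 6 were below the limit, and Cd14 had the highest signal. Sums of the microglia list were 4771 to 5177 in the control and 6581 to 7772 with EGF at 4 h, and 3495 to 4154 and 6163 to 8826 at 12 h. The astrocyte sums overlapped at both times, but Gja1 and Vim had the highest signals in that list and single genes moved. Aldoc (-5.64, adjusted p = 1.81e-05) and Glul (-1.28, 2.83e-05) were lower at 12 h. Aldoc was above the signal limit only through the control arrays of 12 h, which favoured its fall at that time. Its mean signals were 160 in the control and 85.6 with EGF at 4 h, and 2655 and 31 at 12 h. Nes was higher at 4 h (2.37) and at 12 h (2.36), and the other tested astrocyte genes did not pass at either time. The part of other cells in the results below was not tested, and in such bulk RNA fewer cells of a type and less RNA per cell cannot be told apart.

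Arrays also differed in ways that the groups do not explain. The replicate 3 arrays of both groups at 4 h had mean signals of 17378 and 19737 over the hybridization control probe sets, against at most 87.1 on the other 10 arrays. The ratio of 3′ to 5′ signal of beta-actin, which RNA integrity can affect, lay between 11.1 and 21.7 on 5 of the arrays of 12 h (the 3 controls and the EGF arrays of replicates 1 and 2). The remaining 12 h array, EGF replicate 3, had a ratio of 1.24, and the 4 h arrays had 1.20 to 1.61. The same ratio of GAPDH was 6.69 to 8.44 on those 5 arrays and 1.19 on EGF replicate 3 of 12 h. The labels do not say why the arrays differ. A level at 12 h therefore cannot be told apart from these sets of arrays when it is set against a level at 4 h. Counts of channel genes past the threshold with these sets as a block, or within sets, are given beside the main counts.

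A minority of the channel genes changed with EGF, and in both directions. At 4 h, 2 channel genes were higher and 8 lower with EGF, and 41 did not pass the test, so that 19.6% passed against 32.4% of all 10264 genes. Of all genes, 12.8% passed as higher and 19.6% as lower. At 12 h, 8 channel genes were higher and 6 lower, and 37 did not pass, which is 27.5% against 40.7% of all genes (16.5% higher, 24.2% lower). The share of channel genes past the threshold was thus below that of all genes at both times, before the brightness of the probe sets is considered (next paragraph). With these sets entered as a block, 4 were higher and 12 lower at 4 h, and 9 higher and 10 lower at 12 h. Without the replicate 3 pair of 4 h and EGF replicate 3 of 12 h, which leaves only comparisons within sets, 3 were higher and 10 lower at 4 h, and 7 higher and 11 lower at 12 h. Calls over all 18632 probe sets rose in these fits as well: from 27.8% to 43.3% at 4 h and from 36.1% to 42.6% at 12 h with the block, and to 35.2% and 42.5% within sets. Of the 11 genes above the signal limit only through their highest group, 2 passed at 4 h and 4 at 12 h in the main fit.

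Brightness of the probe sets moved with these shares. Of the 12 channel genes with a mean signal of at least 1000, 4 passed at 4 h and 5 at 12 h, with a median standard error of 0.17. Of the 39 dimmer ones, 6 passed at 4 h and 9 at 12 h, with a median standard error of 0.38. Over all genes the shares that passed were 37.4% and 46.6% among the 7168 brighter genes, and 20.9% and 27.1% among the 3096 dimmer ones. Small changes of dim channel genes were thus less measurable here than those of bright ones.

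The median log2 fold change of the 51 channel genes was -0.21 at 4 h and -0.14 at 12 h, beside -0.17 and -0.09 over all genes. Centring each array on its median moved the median over all probe sets from -0.15 to -0.04 at 4 h. With that centring, 3 channel genes were higher and 7 lower at 4 h, and 9 were higher and 4 lower at 12 h. The 3 EGF arrays lay wholly above or below the 3 control arrays in 18 channel genes at 4 h (4 above, 14 below) and in 21 at 12 h (9 above, 12 below). Over all genes the shares were 52.7% at 4 h (19.3% above, 33.3% below) and 52.6% at 12 h (20.9% above, 31.8% below). In all, 18 channel genes passed at either time and 6 at both, against 53.0% and 20.1% of all genes.

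**Figure D1:**
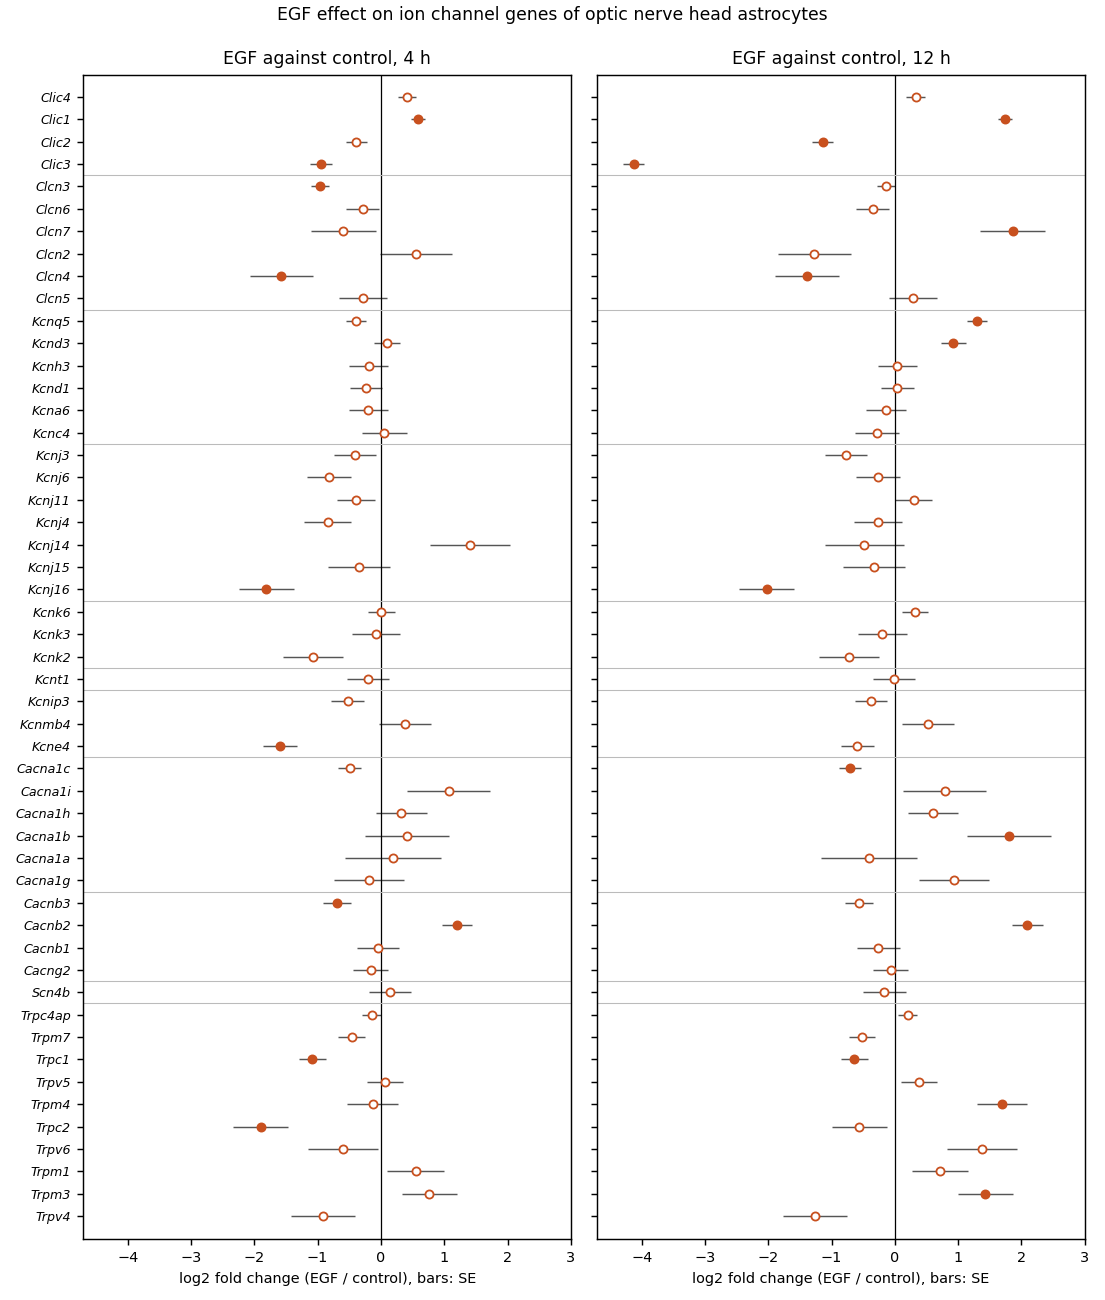
Log2 fold change of EGF against control (x axis) for the 51 channel genes at 4 h (left) and 12 h (right). Bars are standard errors for 3 against 3 arrays from the limma fit. Their spread was estimated over all 12 arrays, so a gene has the same bar at both times. Filled points are genes past the threshold, and grey lines lie between families. Of the points, 10 are filled at 4 h and 14 at 12 h, and Clic3 at 12 h lies farthest from 0 at -4.13.

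Promoter windows of 250 bases before the annotated start were taken from RefSeq (GRCr8) for the 38 channel genes the table holds, 44 windows in all. Shown are those of 3 genes whose EGF effects, described next, differed between the times: Clic3 fell most at 12 h, Kcnq5 rose at 12 h, and Clcn3 fell at 4 h. Each is printed 5′ to 3′ on the strand of the gene, with matches to a searched motif in capitals.
Clic3, chr3:28670005-28670254, plus strand: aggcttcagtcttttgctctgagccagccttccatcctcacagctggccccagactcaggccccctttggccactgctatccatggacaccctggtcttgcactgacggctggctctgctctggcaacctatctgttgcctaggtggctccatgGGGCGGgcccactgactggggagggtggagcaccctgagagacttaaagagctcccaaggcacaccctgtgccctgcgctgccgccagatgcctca
Kcnq5, chr9:31891282-31891531, minus strand: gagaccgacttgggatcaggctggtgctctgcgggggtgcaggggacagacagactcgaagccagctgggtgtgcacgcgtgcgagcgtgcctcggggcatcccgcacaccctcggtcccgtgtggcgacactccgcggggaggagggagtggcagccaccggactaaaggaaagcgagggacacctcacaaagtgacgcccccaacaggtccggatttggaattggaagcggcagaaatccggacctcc
Clcn3, chr16:34137754-34138003, plus strand: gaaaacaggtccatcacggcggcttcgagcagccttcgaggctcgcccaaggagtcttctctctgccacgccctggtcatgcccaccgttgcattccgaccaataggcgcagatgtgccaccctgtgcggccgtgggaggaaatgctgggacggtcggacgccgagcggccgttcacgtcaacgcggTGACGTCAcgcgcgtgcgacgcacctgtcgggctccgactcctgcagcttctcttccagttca

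The motifs were searched on both strands as exact letters, and none of them contains another. The GC box GGGCGG was in 21 of the 44 windows (47.7%), against 30.5% of all 33469 windows, and it is the match in Clic3, starting 96 bases before the gene. The cyclic AMP response element TGACGTCA was in 1 window, that of Clcn3, starting 63 bases before the gene (2.27% against 1.59% of all). A second start of Clcn3 in the table held no match. The ETS letters CCGGAA were in 3 windows (6.82% against 12.6%), those of Clcn6, Kcne4 and Scn4b, and the AP-1 letters TGACTCA in 0 (4.05% of all). Matches of this kind describe the letters and do not show that a factor bound there.

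The Clic genes went opposite ways, and Clic3 at 12 h had the largest change among the channel genes at either time. The family has 5 genes on the array, 4 of them above the limit: Clic1 and Clic4, which are associated with the cytoskeleton and with intracellular vesicles, and Clic2 and Clic3. Clic1 was higher with EGF at both times, Clic3 was lower at both, Clic2 was lower at 12 h, and Clic4 did not pass at either time by its main probe set.

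Clic3 had signals of 2462, 2491 and 2145 on the control arrays of 4 h and 1260.1, 1204 and 1178 with EGF. At 12 h they were 8984, 9039 and 11419 in the control and 487, 447 and 698 with EGF. The groups did not overlap at either time, and the control level was higher at 12 h than at 4 h while the EGF level was lower. The log2 fold change was -0.95 ± 0.17 (SE) at 4 h (adjusted p = 0.00117) and -4.13 ± 0.17 at 12 h (adjusted p = 2.61e-09), where the control mean of 9814 ± 1391 (SD, n = 3) was 18.0 times the EGF mean of 544 ± 135. The EGF effect differed between the times by -3.18 ± 0.24 (adjusted p = 7.28e-06).

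Clic1 moved the other way. Its signals at 4 h were 14565, 14824 and 15141 in the control and 21848, 23254 and 21635 with EGF. At 12 h they were 10907, 10757 and 12112 in the control and 34333, 40812 and 38349 with EGF. Every EGF array was above every control array at both times, and the separation was wider at 12 h. The log2 fold change was 0.58 ± 0.11 at 4 h (adjusted p = 0.0013) and 1.74 ± 0.11 at 12 h (adjusted p = 6.53e-08), and the mean signal at 12 h was 3.36 times that of the control. The difference between these effects was 1.16 ± 0.15 (adjusted p = 0.000378).

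Clic2 gave 8375, 9337 and 10552 in the control and 6904, 6531 and 8136 with EGF at 4 h. At 12 h it gave 26046, 29565 and 39898 in the control and 15611, 13895 and 13124 with EGF. Its groups were apart on every array, but the change at 4 h, -0.39 ± 0.16, did not pass (adjusted p = 0.0902). At 12 h it fell by 1.14 ± 0.16 on the log2 scale (adjusted p = 0.000107). The difference between times was -0.75 ± 0.23 (adjusted p = 0.0483), and it did not pass without any 1 of 8 arrays, namely all 3 EGF arrays of 4 h, control replicates 1 and 2 of 4 h, control replicates 2 and 3 of 12 h and EGF replicate 2 of 12 h (adjusted p up to 0.119), nor with the replicate block (0.0643).

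Clic4 is measured by 4 tested probe sets. The brightest had signals of 43858, 49862 and 48877 in the control and 56639.9, 63282 and 70007 with EGF at 4 h, and 47804, 45263 and 45905 in the control and 49314, 74008 and 54137 with EGF at 12 h. All EGF arrays were above all control arrays at both times, yet neither 0.41 ± 0.15 at 4 h (adjusted p = 0.0550) nor 0.33 ± 0.15 at 12 h (adjusted p = 0.0995) passed. The other 3 probe sets were higher on every EGF array of 4 h, and at 12 h they were highest on EGF replicate 3. On the brighter ones, EGF replicates 1 and 2 of 12 h were also above all controls of that time. Their signals were 5119 and 5828 against 2371 to 3013, and 1042 and 1080 against 403 to 724. The dimmest of the 3 had 9447 to 11559.9 in the control and 13588 to 20439.6 with EGF at 4 h. At 12 h it had 216 to 320.4 in the control, 389 and 311 on EGF replicates 1 and 2, and 7258 on EGF replicate 3, the array with the low actin ratio. The 12 h changes of these probe sets, 1.53 (adjusted p = 0.0022), 2.06 (0.0203) and 1.85 (0.0888), come from groups that include that array. Whether probe position, RNA integrity or another difference between the arrays accounts for this was not tested.

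**Figure D2:**
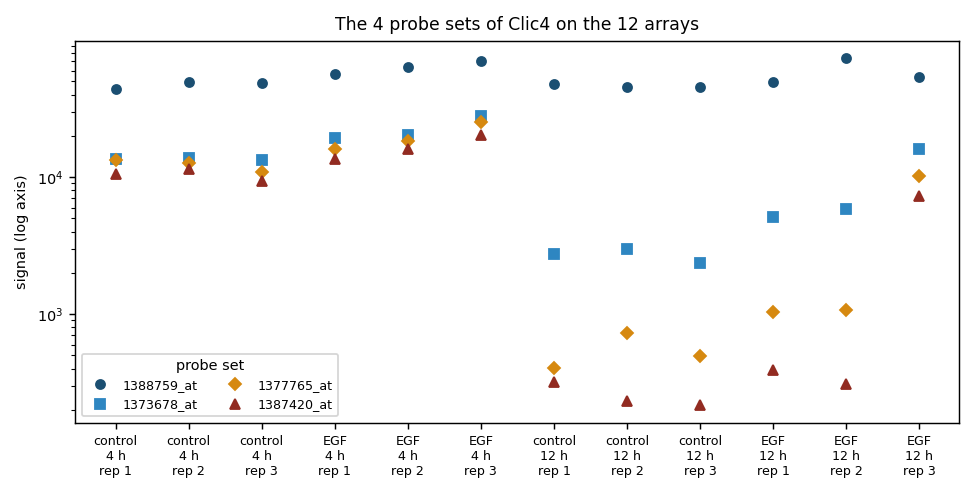
Signal (log axis) of the 4 probe sets of Clic4 on each of the 12 arrays, ordered by group. The brightest probe set stays between 43858 and 74008, while the other 3 are lower on the 5 arrays of 12 h with a high actin ratio than on EGF replicate 3 of 12 h.

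Of the Clcn genes, 6 of 7 were above the limit, and Clcn3, which encodes an endosomal exchanger of chloride for protons, changed at 4 h. Its signals at 4 h were 4247, 4058 and 4532 in the control and 2299.8, 2483 and 1804 with EGF. At 12 h they were 10597, 8662 and 9256 in the control and 8985, 8936 and 7844 with EGF. The 4 h groups were far apart and those of 12 h overlapped. The change was -0.97 ± 0.14 at 4 h (adjusted p = 0.000199) and -0.14 ± 0.14 at 12 h (adjusted p = 0.454). The effects differed between the times by 0.82 ± 0.20 (adjusted p = 0.0171), but this difference did not pass without control replicate 2 of 12 h (adjusted p = 0.0526) or without the replicate 3 pair of 4 h (0.0574), nor on the second brightest probe set (0.0600). The other 3 probe sets of Clcn3 had 4 h changes of -1.01 (adjusted p = 0.0024), -0.88 (0.0009) and -0.41 (0.216).

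Clcn4, a related endosomal exchanger, was dim and lower with EGF at both times. Its signals were 214, 65.7 and 212 in the control and 22.9, 13.9 and 82.4 with EGF at 4 h, so that 1 control array lay below an EGF array. At 12 h they were 693, 624 and 552 in the control and 148, 247 and 297 with EGF, with no overlap. The changes were -1.57 ± 0.50 (adjusted p = 0.0320) and -1.39 ± 0.50 (adjusted p = 0.0451). Clcn4 was above the signal limit only through the control arrays of 12 h (mean 145 over the other 3 groups), which favoured a fall at 12 h. Neither change is firm: the 4 h change did not pass without EGF replicate 1 or 2 or control replicate 1 or 3 of 4 h or control replicate 2 of 12 h (adjusted p from 0.0501 to 0.117). The 12 h change did not pass without any 1 of the control arrays of 12 h, EGF replicate 1 or 2 of 12 h or control replicate 1 of 4 h (from 0.0514 to 0.128). A dimmer probe set of Clcn4 was below the signal limit and not tested. Its means were 191 in the control and 156 with EGF at 4 h, and 68.9 and 88.1 at 12 h.

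Clcn7, the lysosomal exchanger, had 764, 739 and 847 in the control and 458, 421 and 683 with EGF at 4 h. At 12 h the control arrays gave 73.1, 108 and 14.9 and the EGF arrays 123, 245 and 594. The highest EGF signal of 12 h was on replicate 3, the array with the low actin ratio, and the control arrays had 783 ± 56.9 at 4 h and 65.4 ± 47.1 at 12 h. The change was -0.60 ± 0.51 at 4 h (adjusted p = 0.432) and 1.86 ± 0.51 at 12 h (adjusted p = 0.0119). Without control replicate 3 of 12 h the latter was 1.35 (adjusted p = 0.0564). Without EGF replicate 3 of 12 h it was 1.32 (adjusted p = 0.0423), and without the replicate 3 pair of 4 h as well it no longer passed (0.0522), nor did it on the 6 arrays of 12 h alone (0.0739). The difference between times, 2.46 ± 0.73 (adjusted p = 0.0437), was lost in 16 of 23 alternatives, among them the leaving out of every array of 4 h, control replicate 1 or 3 of 12 h and EGF replicate 2 or 3 of 12 h (adjusted p up to 0.101). Clcn6 and Clcn5, also intracellular, and Clcn2, a plasma membrane channel, did not pass at either time, with changes from -1.27 (Clcn2 at 12 h, adjusted p = 0.101) to 0.55 (Clcn2 at 4 h, 0.525).

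**Figure D3:**
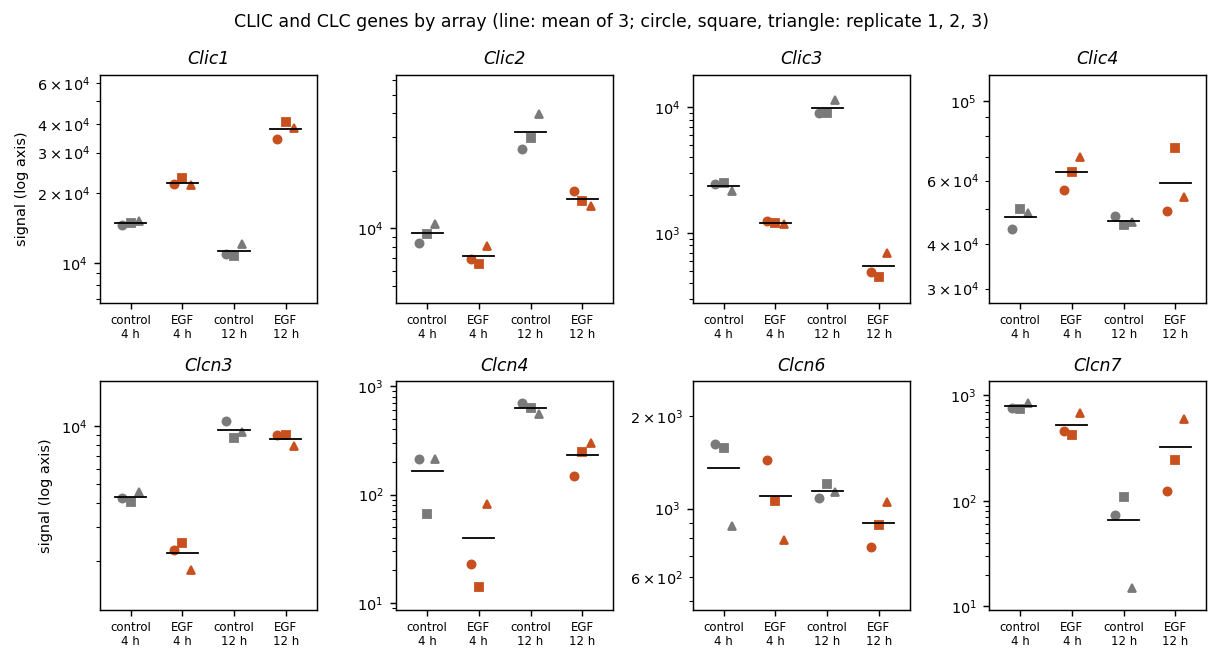
Signal (log axis) of 8 Clic and Clcn genes by group, with 3 arrays each (circle, square and triangle for replicates 1, 2 and 3) and a line at the mean. Clic1 is higher and Clic3 lower on every EGF array, Clcn3 is separated at 4 h, and the Clcn7 control arrays are at 73.1, 108 and 14.9 at 12 h.

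Most potassium channel genes of the array were too dim to be tested. Of 31 voltage-gated pore subunits, 25 were below the limit, and of the 6 above it Kcnq5 and Kcnd3 were higher at 12 h while Kcnh3, Kcnd1, Kcna6 and Kcnc4 did not pass at either time. Kcnq5, a pore subunit of the slow M-type potassium current, had 2512, 2264 and 2224 in the control and 1969.8, 1666 and 1693 with EGF at 4 h. The 12 h signals were 3367, 3478 and 3696 in the control and 10112, 9557 and 6766 with EGF. EGF arrays were thus below control arrays at 4 h and above them at 12 h. The change of -0.39 ± 0.16 at 4 h did not pass (adjusted p = 0.0773), and at 12 h Kcnq5 rose by 1.30 ± 0.16 (adjusted p = 2.53e-05), or 2.51-fold in mean signal. The effects differed by 1.69 ± 0.22 (adjusted p = 0.000352). Other probe sets of Kcnq5 were below the signal limit and not tested. At 12 h one had means of 248 in the control and 199 with EGF, and another had 183 and 261.

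Kcnd3, a pore subunit of the rapidly inactivating A-type current, rose at 12 h. Its signals there were 1050.2, 1064 and 691 in the control and 1686, 1586 and 2058 with EGF. The 12 h arrays did not overlap, and the change was 0.93 ± 0.20 (adjusted p = 0.00311). At 4 h, 2407, 2883 and 2706 in the control overlapped with 3219.5, 3239.6 and 2179 with EGF (0.09 ± 0.20, adjusted p = 0.786). A second probe set of Kcnd3 was also higher at 12 h, with means of 419.9 ± 199.9 in the control and 1141 ± 221 with EGF (adjusted p = 0.0019).

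The inward rectifiers, which carry the glial potassium uptake current, had 7 of 15 genes above the limit. Kcnj16, a subunit that makes such channels sensitive to pH, was lower at both times. Its signals were 174, 157 and 387 in the control and 67.6, 26.3 and 49.5 with EGF at 4 h, then 644, 496 and 426 in the control and 119, 78.8 and 132 with EGF at 12 h. No EGF array reached a control array of its time. The changes were -1.81 ± 0.43 (adjusted p = 0.00712) and -2.02 ± 0.43 (adjusted p = 0.00258). Kcnj16 was above the signal limit only through the control arrays of 12 h (mean 133 over the other 3 groups), which favoured a fall at that time. The 4 h change did not pass without the replicate 3 pair (-1.47, adjusted p = 0.0533) or on a second probe set (-1.38, 0.0841), which gave -2.29 at 12 h (0.0060). This second probe set was likewise above the limit only through the control arrays of 12 h, which favoured its fall at that time. Its means were 309 in the control and 130 with EGF at 4 h, and 376 and 60.7 at 12 h. Kcnj3, Kcnj4, Kcnj6, Kcnj11, Kcnj14 and Kcnj15 did not pass at either time.

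Of 13 accessory subunits of potassium channels, 3 were above the limit, and Kcne4, which inhibits several voltage-gated channels it joins, fell at 4 h. Its signals were 868, 608 and 711 in the control and 239, 227 and 199.6 with EGF. The groups were far apart, and the change was -1.60 ± 0.27 (adjusted p = 0.000611). At 12 h, 434, 281 and 406 in the control and 279, 239.7 and 196 with EGF gave -0.59 ± 0.27 (adjusted p = 0.102), and the difference between the times, 1.01 ± 0.38, did not pass either (adjusted p = 0.107). Kcnip3 and Kcnmb4 did not pass, nor did the tandem-pore genes Kcnk2, Kcnk3 and Kcnk6 or the sodium-activated channel gene Kcnt1. Kcnk2, a stretch-sensitive leak channel, had 461, 480.4 and 635 in the control and 213, 275 and 216 with EGF at 4 h without overlap (-1.08 ± 0.47, adjusted p = 0.110). It was above the signal limit only through those control arrays (mean 164 over the other 3 groups), which favoured a fall at 4 h.

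The calcium channel beta subunits, which bring the pore subunit to the membrane and shape its gating, went opposite ways. Cacnb2 had 316, 459.6 and 237 in the control and 801, 828 and 709 with EGF at 4 h. The signals of 12 h were 314, 348 and 436 in the control and 1858, 1547 and 1503 with EGF. The control means were 337 ± 113 and 366 ± 63.2, and every EGF array was above every control array. Cacnb2 rose by 1.20 ± 0.24 at 4 h (adjusted p = 0.00219) and by 2.09 ± 0.24 at 12 h (adjusted p = 1.76e-05), or 2.31-fold and 4.47-fold in mean signal. A second, dimmer probe set gave 0.73 at 4 h (adjusted p = 0.321) and 1.62 at 12 h (0.0231). That probe set was above the signal limit only through the EGF arrays of 12 h, which favoured its rise at that time. Its means were 170 in the control and 233 with EGF at 4 h, and 198 and 648 at 12 h.

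Cacnb3 had 2301, 1948 and 1470.4 in the control and 1254, 1197 and 1007 with EGF at 4 h. At 12 h it had 3175, 3226 and 2914 in the control and 1446, 2237 and 2771 with EGF. Both pairs of groups were apart, most narrowly at 12 h, where EGF replicate 3 was close to the lowest control array. It fell by 0.70 ± 0.22 at 4 h (adjusted p = 0.0325), while the 12 h change of -0.57 ± 0.22 did not pass (adjusted p = 0.0603). The 4 h call was lost without any 1 of the EGF arrays of 4 h, without control replicate 1 or 2 of 4 h (adjusted p from 0.0536 to 0.134), without the replicate 3 pair (0.0542) and under median centring (0.0687). Cacnb1 and Cacng2 did not pass.

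Of the calcium channel pores, 6 of 10 were above the limit. Cacna1c, the pore of a widely expressed L-type channel, fell at 12 h. Its signals were 1318, 1395 and 1293 in the control and 842, 927 and 676 with EGF, with no overlap (-0.71 ± 0.18, adjusted p = 0.00718). At 4 h, 949.5, 977 and 1215 in the control and 715, 826 and 663 with EGF gave -0.49 ± 0.18 (adjusted p = 0.0539). A dimmer probe set of Cacna1c, below the signal limit and not tested, had means of 120 in the control and 149 with EGF at 12 h. At 4 h it had 342 and 168. Cacna1b, the pore of the N-type channel known from nerve terminals, had 178, 274 and 23.5 in the control and 498, 339.7 and 629.8 with EGF at 12 h. Its change of 1.81 ± 0.66 (adjusted p = 0.0476) passed narrowly, was lost in 18 of 24 alternatives, and became 1.02 (adjusted p = 0.206) without control replicate 3 of 12 h. It was also lost without any 1 of the EGF arrays, without control replicate 3 of 4 h or without control replicate 1 of 12 h. The gene met the signal limit only through EGF at 12 h (mean 174 over the other 3 groups), which favoured such a rise. Cacna1a, Cacna1g, Cacna1h and Cacna1i did not pass. The single sodium channel gene above the limit of 12 on the array, the accessory subunit Scn4b, did not pass (0.14 ± 0.34 at 4 h, adjusted p = 0.799).

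Of 16 genes matched as Trp channels, 10 were above the limit and 4 passed at either time. Trpc1, a subunit of nonselective cation channels, had 1109, 846 and 908 in the control and 475, 402 and 429 with EGF at 4 h. At 12 h it had 1029.7, 1268 and 999 in the control and 923, 573 and 620.1 with EGF. It was lower on every EGF array at both times, more clearly at 4 h. The changes were -1.08 ± 0.21 (adjusted p = 0.00197) and -0.64 ± 0.21 (adjusted p = 0.0304). The latter did not pass without control replicate 1 or 2 or EGF replicate 2 or 3 of 12 h (adjusted p from 0.0582 to 0.120), nor with the array sets entered as a block (0.0590).

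Trpc2, known as the channel of the pheromone-sensing vomeronasal organ, had 398, 517 and 333 in the control and 228, 34.0 and 82.2 with EGF at 4 h. It fell by 1.90 ± 0.43 (adjusted p = 0.00523) with no overlap of the arrays. At 12 h, 696, 675 and 729.9 in the control and 649, 428 and 364 with EGF gave -0.56 ± 0.43 (adjusted p = 0.338). A difference between the times was not shown (1.34 ± 0.61, adjusted p = 0.184). A second probe set of Trpc2, below the signal limit and not tested, did not show the fall at 4 h. Its means were 148 ± 94.0 in the control and 160 ± 103 with EGF (SD).

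The Trpm genes that passed were higher at 12 h. Trpm4, a calcium-activated channel for monovalent cations, had 124, 261 and 272 in the control and 539, 701 and 1009 with EGF. It rose by 1.69 ± 0.40 (adjusted p = 0.00488), against -0.13 ± 0.40 at 4 h (adjusted p = 0.845), where 576, 426 and 223 in the control overlapped with 322, 506 and 253 with EGF. The difference of 1.83 ± 0.57 did not pass (adjusted p = 0.0544). Trpm3, a calcium-permeable channel opened by heat and steroids, had 265, 130.3 and 169.8 in the control and 527, 513 and 549 with EGF at 12 h. It rose by 1.43 ± 0.43 (adjusted p = 0.0202), a call lost without control replicate 2 (adjusted p = 0.0792) or 3 (0.0564) or EGF replicate 3 of 12 h (0.0563). Trpm3 met the signal limit only through those EGF arrays (mean 114 over the other 3 groups), which favoured the rise. Trpm7, a channel fused to a kinase that admits magnesium, had 5815, 5456 and 7034 in the control and 4941, 4081 and 3730.2 with EGF at 12 h. Its arrays did not overlap but the change of -0.52 ± 0.21 did not pass (adjusted p = 0.0692). Trpm1, Trpv4, Trpv5, Trpv6 and Trpc4ap did not pass.

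**Figure D4:**
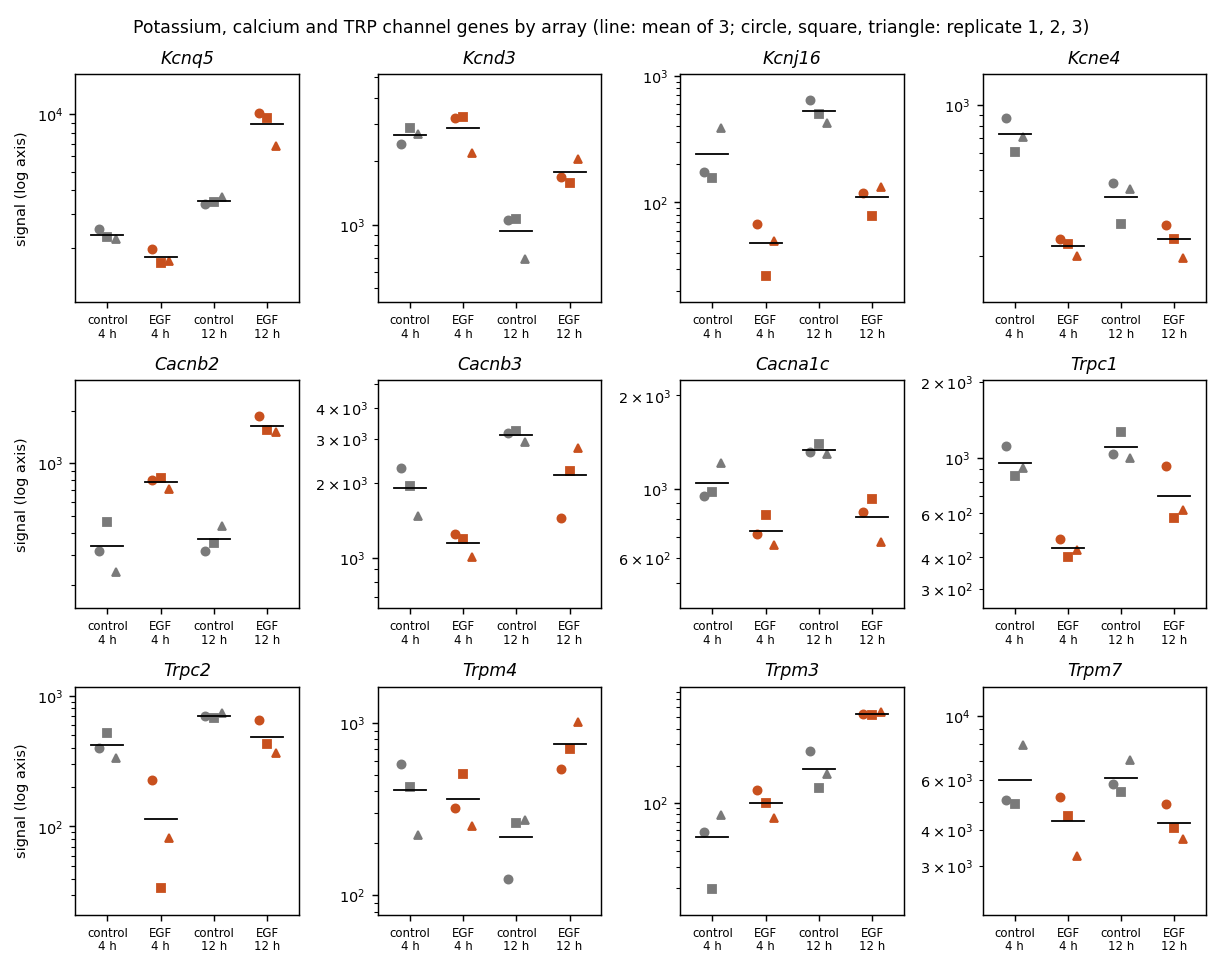
Signal (log axis) of 12 potassium, calcium and Trp channel genes by group, with 3 arrays each (circle, square and triangle for replicates 1, 2 and 3) and a line at the mean. Kcnq5, Kcnd3, Cacnb2, Trpm4 and Trpm3 are higher on all EGF arrays of 12 h, while Kcne4, Trpc1 and Trpc2 are lower on all EGF arrays of 4 h.

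Across the channel genes, the EGF effect differed between the times in 6, 4 with a higher and 2 with a lower effect at 12 h, which is 11.8% against 14.0% of all genes (6.55% higher, 7.44% lower). They were Clic1, Kcnq5, Clcn3 and Clcn7 on the one side and Clic2 and Clic3 on the other. The control signal itself was over 2 times as high at 12 h as at 4 h in 8 channel genes, among them Clic3 (4.15), Clic2 (3.38) and Clcn3 (2.22). It was under 0.5 times as high in 5, among them Clcn7 (0.0835) and Kcnd3 (0.351). These ratios were not tested, because time and the sets of arrays cannot be told apart in the controls.

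Other genes of membrane ion transport were counted from 3 lists. Of all genes, 32.4% passed at 4 h (12.8% higher, 19.6% lower) and 40.7% at 12 h (16.5% higher, 24.2% lower). The counts are descriptive, and whether they differ from these shares was not tested. Of the ligand-gated and other plasma membrane channels, 30 of 56 on the array were tested, of which 8 were higher and 2 lower at 4 h, and 10 higher and 7 lower at 12 h. Their median changes were 0.01 and 0.20, beside -0.17 and -0.09 over all genes. Those of smallest p at 4 h were Ttyh2, a tweety family membrane protein (2.55 ± 0.20, adjusted p = 9.65e-07), and Lrrc8a and Lrrc8c, subunits of the volume-regulated anion channel (1.24 ± 0.12, 6.77e-06, and 2.10 ± 0.21, 7.7e-06). At 12 h they were the calcium-activated chloride channel gene Ano1 (2.62 ± 0.21, adjusted p = 6.56e-07), the water channel gene Aqp1 (-3.04 ± 0.27, 1.63e-06) and the lysosomal cation channel gene Mcoln1 (-1.84 ± 0.22, 2.19e-05).

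Of the ion pumps and cation-chloride cotransporters with their regulators, 19 of 28 were tested, with 5 higher and 4 lower at each time and medians of 0.03 and 0.18. The shares of all genes that passed were 32.4% at 4 h and 40.7% at 12 h. The kinase gene Sgk1, which raises the activity of many transporters, rose by 4.18 ± 0.19 at 4 h (adjusted p = 8.01e-09), from a mean of 753 ± 99.4 to 13991 ± 1381 (SD, n = 3). The sodium bicarbonate cotransporter gene Slc4a7 rose by 2.19 ± 0.17 at 4 h (adjusted p = 8.52e-07) and the calcium pump gene Atp2b1 by 1.87 ± 0.15 (1.17e-06). At 12 h, Slc4a4, another bicarbonate cotransporter, fell by 2.25 ± 0.12 (adjusted p = 1.81e-08), and Fxyd5, a modulator of the sodium pump, rose by 4.25 ± 0.28 (1.03e-07).

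Of the genes of calcium stores and store-operated entry, 23 of 29 were tested, with 6 higher and 2 lower at 4 h, 5 higher and 4 lower at 12 h, and medians of -0.03 and 0.16. The shares of all genes were again 32.4% at 4 h and 40.7% at 12 h. The scaffold gene Homer1 (1.16 ± 0.18, adjusted p = 0.000363), the junctional membrane gene Jph2 (1.55 ± 0.25, 0.0005) and the endoplasmic reticulum calcium pump gene Atp2a2 (0.62 ± 0.12, 0.00151) rose at 4 h. At 12 h the calcium release channel gene Ryr3 fell by 3.13 ± 0.26 (adjusted p = 1.09e-06), while Atp2a2 (0.83 ± 0.12, 0.000107) and Homer2 (1.64 ± 0.26, 0.000261) rose.

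**Figure D5:**
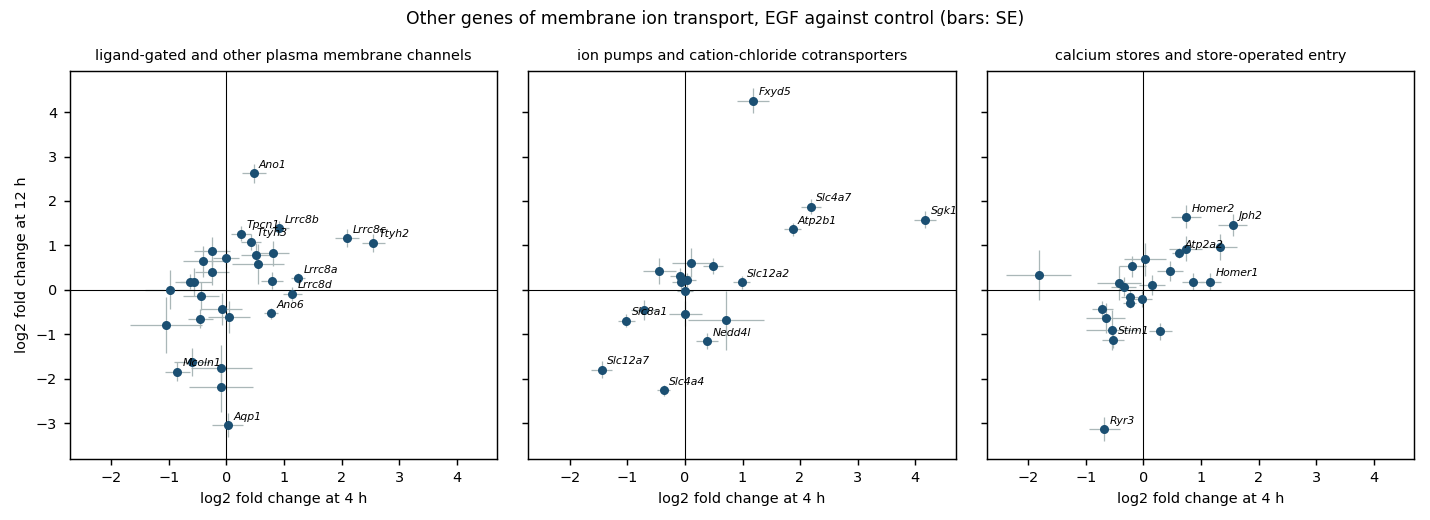
Log2 fold change of EGF against control at 4 h (x axis) and at 12 h (y axis), with standard errors as bars, for the tested genes of 3 lists of other ion transport genes. Sgk1 lies farthest right at 4.18, Fxyd5 highest at 4.25 and Ryr3 lowest at -3.13.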

How the data were processed

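RNA of 12 arrays was measured, 3 per group, and the titles gave each array's group and replicate number (every description says control, also for EGF). The deposited file holds a linear intensity per probe set, and per the submitters' processing notes the authors used MAS5, with no version given in the labels. Trimmed means (2%) per array lay between 1500.46 and 1500.56, and median signals ran from 305.5 to 415.2. No array was rescaled. Of 31099 probe sets, 57 controls and 12410 with a mean signal under 215 were left out and 18632 were tested. The number of arrays limits the precision.

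Before log2, 24.4 was added to every signal (the 10th percentile over all arrays). Group means over all 12 arrays were fitted in R 4.3.3 with limma 3.58.1 (empirical Bayes moderation with an intensity trend, 8 residual degrees of freedom, two-sided tests, Benjamini-Hochberg adjustment over all probe sets tested). All adjusted p values are from limma. The fitting steps were tested on simulated data. The platform's annotation gave 20832 probe sets 1 symbol, 436 several and 9831 none, and a gene with several probe sets (2946 of those tested) was taken at the brightest. All 51 symbols are current in RefSeq.

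The members, lists and tests were chosen with earlier results of these data known. Genes were named by the size of change among those past the threshold without overlap of arrays (6 per direction and time), by the difference between times (the 3 largest each way) and by the 4 highest signals, with others of their family. From each list up to 3 genes of smallest p at each time were named.

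Whether replicate numbers pair the arrays was checked by correlating deviations from the group means. Same-numbered arrays had r of 0.121, 0.151 and 0.376 at 4 h, and 0.083, -0.111 and -0.103 at 12 h. At 4 h, EGF replicate 1 with control replicate 2 had 0.142, and EGF replicate 2 with control replicate 1 had 0.138. The value of 0.376 belongs to the replicate 3 pair with high hybridization controls. The check therefore does not show that the numbers pair the arrays, and the main fit used no pairing. Alternatives were another offset, centring, quantile normalization, filter, probe set, trend, array weights, blocks and left-out arrays. The sets of arrays were defined after seeing the data.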

Additional observations from a re-analysis of the deposited data

Results flagged for a closer look

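The EGF effect on 6 channel genes differed between 4 h and 12 h by a test of the difference itself (limma, log2 effect at 12 h minus that at 4 h). It was higher at 12 h for Clic1 (1.16), Kcnq5 (1.69), Clcn3 (0.82) and Clcn7 (2.46), and lower for Clic2 (-0.75) and Clic3 (-3.18). Those of Clic1, Kcnq5 and Clic3 passed under every alternative run. No second probe set was among these alternatives, since none of these genes has another probe set above the signal limit. Actin 3′ to 5′ ratios differed between the arrays of the 2 times, and their part in these differences was not tested.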

How the results depend on the processing

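Of 30 results on single channel genes, 18 kept their direction and side of the threshold under all alternatives run, and 12 lost significance under at least 1 of them. None of the 721 values reversed. Counts of channel genes moved as follows. At 4 h, higher genes numbered 1 with the second brightest probe set, and 4 with array weights as well as with the array sets entered as a block, and lower genes 13 with array weights and 12 with the set block. At 12 h, lower genes numbered 12 with array weights, 10 with the set block, and 11 without the replicate 3 pair of 4 h and EGF replicate 3 of 12 h, an alternative chosen after seeing the data. The difference between times gave 8 higher genes with array weights and 2 without the replicate 3 pair, 3 lower genes with the set block, and 1 lower gene under median centring, without the filter, without the trend and without that pair. Leaving out 1 array at a time gave 2 to 4 higher and 6 to 10 lower genes at 4 h, 5 to 9 and 4 to 8 at 12 h, and 3 to 5 and 1 to 2 for the difference. The 5 came without control replicate 3 of 12 h, the 4 higher at 4 h without EGF replicate 3 of 12 h, and the 4 lower at 12 h without control replicate 1 or 2 or EGF replicate 2. With the replicate block, 2 genes were higher and 8 lower at 4 h, 7 and 7 at 12 h, and 4 and 1 for the difference. There Cacna1b at 12 h (adjusted p = 0.0501) and the differences of Clic2 (0.0643) and Clcn7 (0.0882) did not pass. The causes were not tested. The 39 dimmer channel genes had a median standard error of 0.38, and changes well above that size could fail to pass. Examples at 12 h are Trpv6 (1.38 ± 0.55) and Clcn2 (-1.27 ± 0.57).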
